A study of Rattus norvegicus with 24 samples.

Results

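The S100 proteins and annexins examined here are the products of 10 rat genes: S100a4, S100a6, S100a10, S100a11, Anxa1, Anxa2, Anxa3, Anxa4, Anxa5 and Anxa7. They were taken as every probe set (the group of short DNA probes that reads a transcript on an Affymetrix array) whose annotated gene symbol was among these names, which gave 14 probe sets for 10 of the 10411 genes that the array annotates with a single symbol. Expression was measured in kidneys of male stroke-prone spontaneously hypertensive rats (SHR-SP), a strain that develops severe hypertension. Rats were 11 weeks old when they were randomly assigned to a diet, and they were studied after 2 or 8 weeks. The high salt and fat groups received chow with 24.5% fat together with drinking water that held 1% NaCl, and the normal diet groups received powdered Purina 5001 chow with water. There were 4 groups of 6 animals with a single array for each of the 24 kidneys: high salt and fat for 2 weeks, normal diet for 2 weeks, high salt and fat for 8 weeks, and normal diet for 8 weeks. Salt and fat were given together, and every rat carried the hypertensive background, so neither component of the diet can be told apart from the other and no normotensive rat was compared.

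S100 proteins are small proteins that usually form dimers and change shape when calcium binds to their EF-hand loops, which exposes a surface that docks onto target proteins. Annexins bind phospholipid membranes when calcium is present and act in membrane repair, vesicle traffic and the control of phospholipases. Some members of the families meet directly: S100a10 holds Anxa2 at the membrane in a heterotetramer, and S100a11 binds Anxa1. In the kidney, members of both families are found in distal and collecting duct epithelium, vessels, interstitial fibroblasts and leukocytes, and several are known to be raised in injured tubules.

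The values are signals of the Affymetrix MAS5 algorithm in arbitrary units, scaled to a common level on all arrays, with array medians between 68.7 and 78.7. Of the 14 probe sets, 11 passed a filter that required a signal above the 40th percentile of the array in at least 6 arrays, and these covered all 10 genes. The 3 that did not pass were 2 probe sets of Anxa3 and 1 of Anxa7. Each gene is described by its probe set of highest mean signal, and differences are on the log2(signal + 7.21) scale, on which 1 stands for a doubling of a bright signal. A gene is called changed when its Benjamini-Hochberg adjusted p from limma, a linear model with moderated variances fitted across 10208 probe sets and 24 arrays, is under 0.05. All 13 proximal tubule genes that were checked to mark kidney tissue passed the filter, with summed signals of 30212 to 46793 over the arrays. Because whole pulverised kidney was measured, a change in the number of cells that make a transcript and a change in the amount made by each cell cannot be told apart.

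After 2 weeks of high salt and fat, 5 of the 10 genes were higher than on the normal diet and 0 were lower. Among all probe sets tested, 8.74% were called in this comparison and 4.55% were called higher. The genes that rose were S100a4, S100a6, S100a11, Anxa2 and Anxa5. The median difference of the 10 genes was 0.44 on the log2 scale, beside 0.02 for all probe sets tested.

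S100a6, or calcyclin, is a small dimeric S100 protein of proliferating and stressed cells. Its signal was 371 at the lowest, 460 at the median and 513 at the highest in the 2-week high salt and fat kidneys, against 106, 144 and 267 in the 2-week normal diet kidneys. Every kidney on high salt and fat exceeded every kidney on the normal diet. The difference was 1.44 ± 0.20 (log2, SE, limma adjusted p = 4.3e-05), the ninth largest increase among the 10208 probe sets tested. S100a4, which binds non-muscle myosin and is widely used as a marker of fibroblasts and some leukocytes, had a signal of 65.7 at the lowest, 115 at the median and 249 at the highest on high salt and fat, against 25.9, 48.4 and 71.8 on the normal diet. A single high salt and fat kidney at 249 stood well above the other 5, and the groups overlapped at their edges. The difference in S100a4 was 1.19 ± 0.23 (adjusted p = 0.0016).

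S100a11, a partner of annexins in epithelial cells, showed the tightest separation at this time. The signal of S100a11 was 1129 at the lowest, 1217 at the median and 1355 at the highest on high salt and fat for 2 weeks, against 677, 725 and 788 on the normal diet. The gap between the groups was wider than the range within either, and the difference was 0.75 ± 0.10 (adjusted p = 2.8e-05). S100a10, also known as p11, has lost the ability to bind calcium and serves as a constant partner of Anxa2. Its signal of 237 at the lowest, 295 at the median and 346 at the highest on high salt and fat lay across that on the normal diet, which was 226, 246 and 307. The difference in S100a10 was 0.20 ± 0.13 (adjusted p = 0.39), with a 95% interval of -0.08 to 0.48.

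Of the 6 annexins, Anxa2 and Anxa5 rose after 2 weeks. Anxa2 links membranes to the actin skeleton and binds tissue plasminogen activator at the cell surface. Its signal was 371 at the lowest, 463 at the median and 574 at the highest on high salt and fat, against 256, 288 and 325 on the normal diet, a difference of 0.65 ± 0.14 (adjusted p = 0.0047) without overlap. Anxa5, the annexin used to stain dying cells because it binds exposed phosphatidylserine, had a signal of 638 at the lowest, 748 at the median and 1028 at the highest on high salt and fat, against 451, 468 and 543 on the normal diet. The Anxa5 groups did not overlap either, and the difference was 0.68 ± 0.10 (adjusted p = 7.1e-05).

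The other annexins did not pass the test at 2 weeks. Anxa1, an inhibitor of inflammation induced by glucocorticoids, differed by 0.24 ± 0.11 (adjusted p = 0.19). Anxa4, an epithelial annexin, differed by 0.20 ± 0.10 (adjusted p = 0.23), and Anxa7, also called synexin and known for fusing granule membranes, by 0.21 ± 0.11 (adjusted p = 0.24). Anxa3, known for promoting the growth of vessels, differed by 0.03 ± 0.14 (adjusted p = 0.94). The 95% intervals of these 4 differences reached 0.47, 0.40, 0.42 and 0.32, so an increase of about that size is not excluded by these data. Counted over the genes, 4 of 10 had groups that did not overlap, where 2.67% of all probe sets tested did so in the upward direction.

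Several features of the 2-week kidneys moved beside these genes. The collecting duct markers gave 6 called higher and 1 lower of 9, with summed signals of 3370 to 3844 on high salt and fat against 1986 to 2448 on the normal diet, none of them at 0. The tubular injury markers gave 5 called higher of 13, with sums of 5167 to 5969 against 3357 to 4235. The proximal tubule markers gave 8 called lower of 13, with sums of 30212 to 39800 against 42462 to 46063. Fibroblast and matrix markers gave 1 called higher of 10, with sums of 2928 to 3584 against 2410 to 3427. Of the macrophage and myeloid markers 0 of 11 were called, with sums of 2982 to 3555 against 3341 to 3746. Smooth muscle and pericyte markers gave 2 higher of 8, and thick ascending limb and distal tubule markers 2 higher of 6. Endothelial markers gave 1 higher of 6 and podocyte markers 0 of 4. Of 2 urothelium markers tested, Psca was higher by 3.24 ± 0.27 (adjusted p = 9.9e-09), and the other was not called and differed by -0.26. The part of these cell types in the S100 and annexin differences was not tested. All 4 measured adipocyte genes were lower, with sums of 130 to 302 against 321 to 3876. With an index of 3 of those fat genes as a covariate, 4 of the 5 calls stood, and Anxa2 was lost at a difference of 0.62. The ratio of 3' to 5' GAPDH probe signals, which rises as RNA degrades, was 1.22 ± 0.09 on high salt and fat and 1.09 ± 0.07 on the normal diet (SD, n = 6 each, exact two-sided permutation p = 0.015, adjusted over 8 tests 0.040). All 5 calls stood with that ratio as a covariate. The level of control transcripts spiked into each sample was -0.13 ± 0.20 on high salt and fat and 0.17 ± 0.06 on the normal diet (centred log2, SD, n = 6 each, exact permutation p = 0.0022, the smallest that 6 against 6 arrays can give, adjusted 0.0087), and all 5 calls stood with it as a covariate as well.

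**Figure D1:**
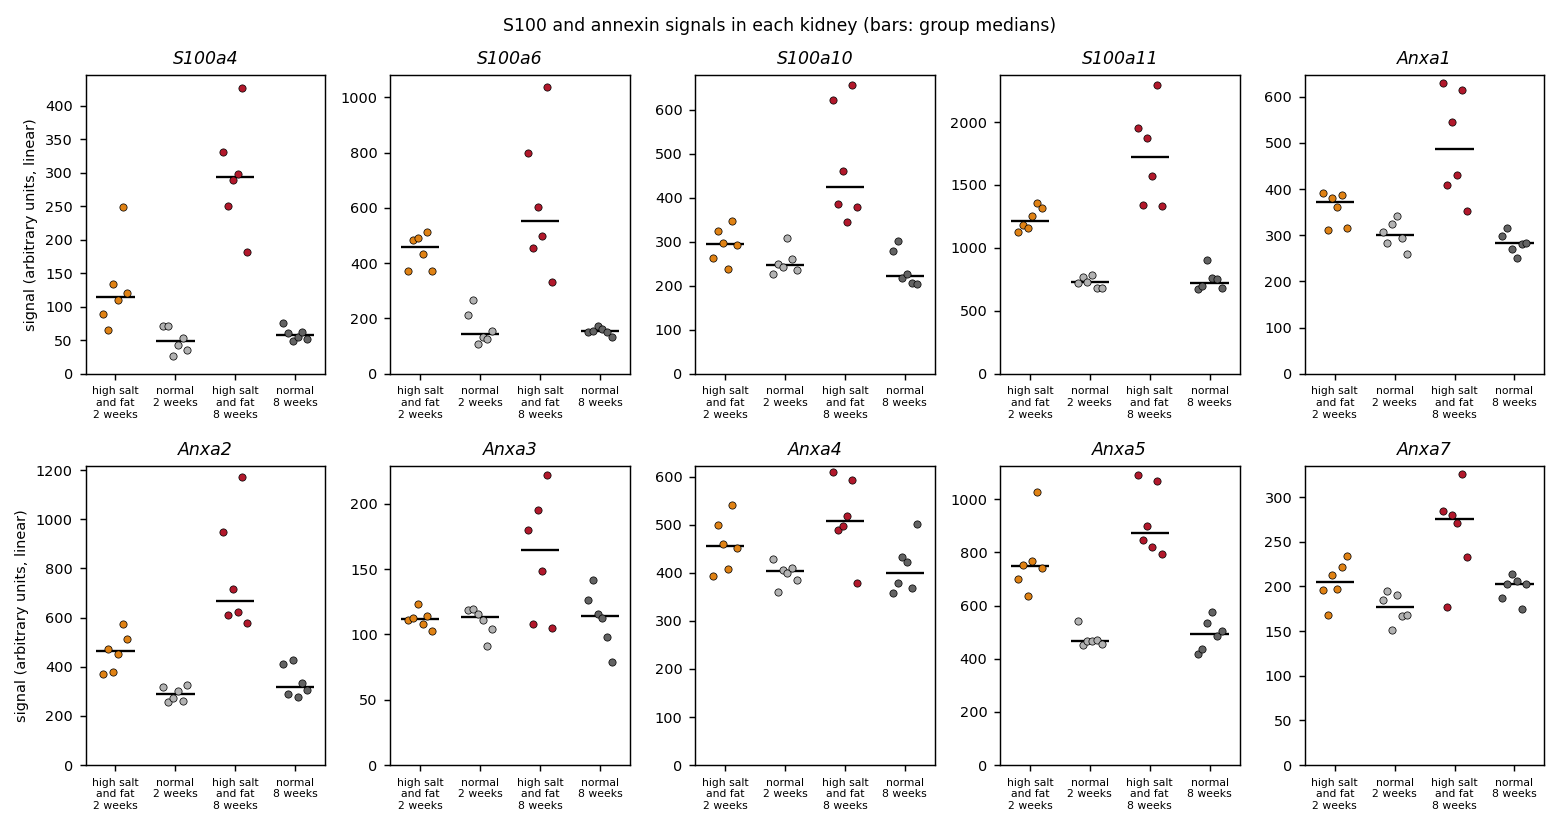
Signal (arbitrary units, linear axis starting at 0) of each of the 10 genes in every kidney; each point is an animal and each bar a group median, with 6 animals in a group. S100a6, S100a11, Anxa2 and Anxa5 separate the diets without overlap at both 2 and 8 weeks, whereas Anxa3, Anxa4 and Anxa7 overlap at both.

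The promoters of the 5 genes that were called at both times are shown because these genes moved together. Each stretch is the 250 bases before the annotated transcription start in RefSeq on assembly GRCr8, on the strand of the gene, at chr2:178388279-178388528 (plus) for S100a4, chr2:178398287-178398536 (plus) for S100a6, chr2:181874882-181875131 (plus) for S100a11, chr8:78986002-78986251 (plus) for Anxa2 and chr2:121272697-121272946 (minus) for Anxa5. Capitals mark matches to any of 5 motifs searched on both strands: the TATA box TATAAA, the GC box GGGCGG, the AP-1 site TGANTCA, the antioxidant response core TGACNNNGC, and TGGAAA, a core shared by NFAT and the tonicity factor TonEBP.
S100a4: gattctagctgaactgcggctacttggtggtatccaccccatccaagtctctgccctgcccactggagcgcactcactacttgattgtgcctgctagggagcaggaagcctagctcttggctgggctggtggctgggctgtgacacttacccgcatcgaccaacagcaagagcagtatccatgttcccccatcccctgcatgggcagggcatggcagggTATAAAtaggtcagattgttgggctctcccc
S100a6: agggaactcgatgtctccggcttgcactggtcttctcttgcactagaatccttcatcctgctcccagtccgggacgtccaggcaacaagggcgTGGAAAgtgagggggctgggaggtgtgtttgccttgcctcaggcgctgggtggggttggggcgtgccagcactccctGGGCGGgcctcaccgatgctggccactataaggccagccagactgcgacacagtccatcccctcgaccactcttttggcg
S100a11: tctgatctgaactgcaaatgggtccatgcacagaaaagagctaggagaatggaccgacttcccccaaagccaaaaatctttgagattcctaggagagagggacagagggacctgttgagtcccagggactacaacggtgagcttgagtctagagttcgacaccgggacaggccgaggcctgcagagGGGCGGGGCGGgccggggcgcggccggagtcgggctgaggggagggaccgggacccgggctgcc
Anxa2: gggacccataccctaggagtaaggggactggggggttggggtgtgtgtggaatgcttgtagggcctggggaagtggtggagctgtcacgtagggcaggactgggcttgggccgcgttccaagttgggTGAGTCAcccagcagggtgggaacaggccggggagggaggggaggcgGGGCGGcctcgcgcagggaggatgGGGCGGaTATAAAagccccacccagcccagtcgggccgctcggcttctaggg
Anxa5: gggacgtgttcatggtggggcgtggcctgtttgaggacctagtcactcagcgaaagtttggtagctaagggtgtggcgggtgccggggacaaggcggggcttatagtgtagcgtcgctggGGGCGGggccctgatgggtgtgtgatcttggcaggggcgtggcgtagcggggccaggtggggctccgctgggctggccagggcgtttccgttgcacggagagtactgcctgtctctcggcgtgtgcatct
The S100a4 stretch held a TATA box 31 bases before the start and no GC box. The stretches of S100a11 and Anxa5 held GC boxes and no TATA box, with 2 overlapping copies in S100a11. That of S100a6 held a GC box and TGGAAA, and that of Anxa2 held a TATA box, 2 GC boxes and an AP-1 site. Thus no single motif of the 5 was present in all of these stretches. RefSeq gave a promoter for 9 of the 10 genes, all but S100a10. Of these 9, 6 held a GC box, which 32.4% of 27457 promoters did, 3 held a TATA box (13.1%), 1 an AP-1 site (6.36%), 1 the antioxidant core (10.2%) and 1 the TGGAAA core (19.5%). A match is a description of letters and not a site of binding. S100a4 and S100a6 lie on chromosome 2 with a single protein-coding gene, S100a5, between them, and S100a11 and S100a10 are direct neighbours on the same chromosome.

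After 8 weeks, all 10 genes were higher on high salt and fat than on the normal diet. Among all probe sets tested, 9.14% were called at 8 weeks and 5.63% were called higher. The median difference of the 10 genes was 0.92 on the log2 scale, beside -0.0015 for all probe sets tested. In 7 genes the groups did not overlap, as was the case upward for 2.21% of all probe sets tested. Called higher at both times were 5 of the 10 genes, and 1.67% of the probe sets tested.

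S100a4 and S100a6 showed the largest increases of the 10 genes. S100a4 had a signal of 182 at the lowest, 294 at the median and 426 at the highest on high salt and fat, against 48.3, 57.5 and 75.2 on the normal diet. The groups did not overlap, and the difference was 2.17 ± 0.23 (adjusted p = 6.6e-07), the fifth largest increase among the 10208 probe sets. S100a6 had a signal of 331 at the lowest, 551 at the median and 1036 at the highest on high salt and fat, against 133, 154 and 171 on the normal diet. Its difference of 1.87 ± 0.20 (adjusted p = 6.6e-07) was the sixth largest.

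S100a11 had a signal of 1331 at the lowest, 1723 at the median and 2296 at the highest on high salt and fat, against 672, 723 and 905 on the normal diet, a difference of 1.18 ± 0.10 (adjusted p = 1.5e-08). S100a10, which had not passed the test at 2 weeks, had 344 at the lowest, 424 at the median and 657 at the highest on high salt and fat, against 203, 222 and 301 on the normal diet. Its groups did not overlap at 8 weeks, and it differed by 0.94 ± 0.13 (adjusted p = 3.8e-05). As a ratio of mean signals, the high salt and fat kidneys stood at 5.03 for S100a4, 4.03 for S100a6, 2.32 for S100a11 and 1.99 for S100a10 relative to the normal diet kidneys. The normal diet mean of S100a4 in this ratio was 58.8, near the filter level of 44.5 to 54.5.

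Among the annexins, Anxa2 showed the largest increase at 8 weeks. Its signal was 580 at the lowest, 669 at the median and 1172 at the highest on high salt and fat, against 276, 318 and 426 on the normal diet, a difference of 1.15 ± 0.14 (adjusted p = 6.6e-06). Anxa5 had 794 at the lowest, 872 at the median and 1092 at the highest on high salt and fat, against 416, 494 and 577 on the normal diet. The Anxa5 difference of 0.89 ± 0.10 (adjusted p = 1.1e-06) was again without overlap. Anxa1 had 352 at the lowest, 487 at the median and 629 at the highest on high salt and fat, against 252, 283 and 316 on the normal diet, and it differed by 0.76 ± 0.11 (adjusted p = 4.4e-05), without overlap.

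The remaining annexins rose less, and their groups overlapped. Anxa3 had a signal of 105 at the lowest, 164 at the median and 222 at the highest on high salt and fat, against 79.0, 114 and 142 on the normal diet, with a difference of 0.45 ± 0.14 (adjusted p = 0.045). Anxa4 had 379 at the lowest, 508 at the median and 610 at the highest on high salt and fat, against 358, 400 and 502 on the normal diet, with a difference of 0.31 ± 0.10 (adjusted p = 0.041). Anxa7 had 177 at the lowest, 275 at the median and 326 at the highest on high salt and fat, against 175, 203 and 214 on the normal diet, and it differed by 0.37 ± 0.11 (adjusted p = 0.026). These 3 calls were the least stable of the list. When each array was left out in turn, the Anxa3 call was lost in 17 of 24 fits (adjusted p 0.0092 to 0.14), the Anxa4 call in 8 (0.0046 to 0.12) and the Anxa7 call in 5 (0.0011 to 0.086). All 3 were lost without high salt and fat replicate 1, 3 or 5 or without normal diet replicate 1 or 5 at 8 weeks, which left 7 genes called. Without both normal diet arrays 1 and 2 at 8 weeks, which had the lowest levels of spiked control transcripts of their group (-0.44 and -0.31, centred log2), 8 genes were called, and Anxa4 and Anxa7 were lost.

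**Figure D2:**
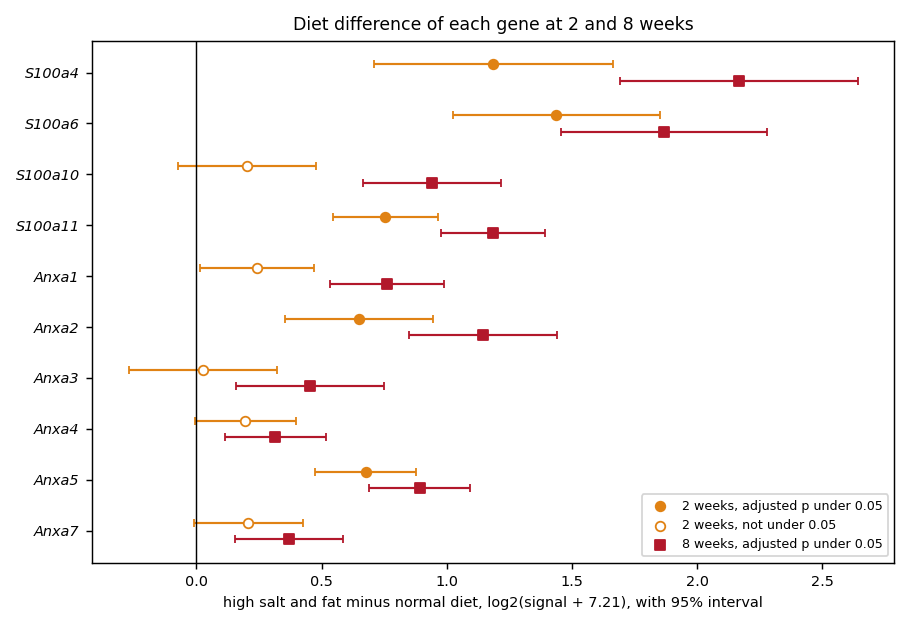
Difference between the high salt and fat diet and the normal diet for each gene, in log2(signal + 7.21) with 95% intervals, at 2 weeks (circles) and 8 weeks (squares); filled symbols passed the adjusted p of 0.05 and open symbols did not. All 10 squares are filled and 5 of the 10 circles are, and for each gene the 8-week value lies to the right of the 2-week value.

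The second probe sets of the genes carried less information. Anxa4 was read by another probe set that passed the filter, which differed by -0.08 ± 0.15 at 2 weeks (adjusted p = 0.78) and by 0.44 ± 0.15 at 8 weeks (adjusted p = 0.057). That probe set and the brighter one of Anxa4 therefore both lay higher on high salt and fat at 8 weeks, and only the brighter one passed the test. The untested probe sets of Anxa3 had signals of 10.8 to 46.0 and 1.1 to 6.6 over all arrays, and that of Anxa7 had 19.6 to 59.5. At 8 weeks the first of these averaged 24.4 ± 7.0 on high salt and fat and 35.4 ± 9.4 on the normal diet (SD, n = 6 each), which is the opposite order to the tested probe set of Anxa3. RefSeq lists 8 further entries named as copies of Anxa2, 7 of S100a11, 4 of Anxa7 and 1 of S100a10, and transcripts of such copies could not be told apart from those of the named gene.

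Other cell markers had also moved by 8 weeks. Of the tubular injury markers, 10 of 13 were called higher, with summed signals of 7320 to 15372 on high salt and fat against 3726 to 4831 on the normal diet. Havcr1, the gene of kidney injury molecule 1, was higher by 2.88 ± 0.33 (adjusted p = 2.2e-06). Of the fibroblast and matrix markers, 6 of 10 were called higher, with sums of 2831 to 5660 against 2123 to 2574, and of the macrophage and myeloid markers 4 of 11, with sums of 3610 to 4871 against 2975 to 3642. Smooth muscle and pericyte markers gave 3 higher of 8 (1459 to 1668 against 1162 to 1362), and collecting duct markers gave 4 higher of 9 (2945 to 3834 against 2297 to 2828). The proximal tubule markers gave 6 called lower of 13, with sums of 31905 to 37549 on high salt and fat against 35608 to 46793 on the normal diet. Endothelial markers gave 1 lower of 6 and podocyte markers 1 lower of 4, and the thick ascending limb and distal tubule markers gave 1 higher and 1 lower of 6. Of the 2 urothelium markers, Psca was again higher, by 2.82 ± 0.27 (adjusted p = 8.4e-08), and the other was not called and differed by -0.14. Psca averaged 115 ± 23 on high salt and fat and 10.3 ± 4.5 on the normal diet (SD, n = 6 each), the latter again below the filter level. Of 4 neutrophil markers on the array, 0 passed the filter, and they included the S100 genes S100a8, with a mean signal of 1.75 on high salt and fat and 4.57 on the normal diet, and S100a9, with 6.37 on high salt and fat and 4.75 on the normal diet. The part of the other cell types in the S100 and annexin differences was not tested. The spike-in level at 8 weeks was 0.10 ± 0.06 on high salt and fat and -0.13 ± 0.24 on the normal diet (exact permutation p = 0.048, adjusted 0.095, n = 6 each), and with it as a covariate 7 genes were called, Anxa3, Anxa4 and Anxa7 being lost.

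Whether the diet difference grew between 2 and 8 weeks was asked of the interaction, the 8-week difference minus the 2-week difference. It was positive for all 10 genes, with a median of 0.43, and 0 of 10 were called by limma, where 0.382% of all probe sets tested were called. At an unadjusted p under 0.05 there were 6 genes, beside 1189 of the 10208 probe sets. S100a10 came nearest to the threshold at 0.74 ± 0.19 (adjusted p = 0.10), followed by Anxa1 at 0.52 ± 0.16 (adjusted p = 0.16). S100a10 did pass with weights on the arrays, without high salt and fat replicate 4 at 8 weeks, or without both normal diet arrays 1 and 2 at 8 weeks, and Anxa1 passed without high salt and fat replicate 6 at 8 weeks. The largest value was that of S100a4, at 0.98 ± 0.33 (adjusted p = 0.22). An 8-week difference called in S100a10, Anxa1, Anxa3, Anxa4 and Anxa7 beside an uncalled 2-week difference is thus not shown to differ between the times in the fit to all arrays.

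On the high salt and fat diet itself, 5 of 10 genes were higher at 8 weeks than at 2 weeks, where 3.53% of all probe sets tested were called and 2.22% were called higher. The comparison shares its kidneys with the diet comparisons above. S100a4 rose by 1.24 ± 0.23 (adjusted p = 0.0023), with a mean signal of 296 ± 82 at 8 weeks and 128 ± 64 at 2 weeks (SD, n = 6 each). Anxa2 rose by 0.71 ± 0.14 (adjusted p = 0.0045) with 775 ± 237 at 8 weeks and 461 ± 78 at 2 weeks, and it alone had groups that did not overlap, which 1.15% of the probe sets tested did upward. S100a10 rose by 0.65 ± 0.13 (adjusted p = 0.0059), S100a11 by 0.46 ± 0.10 (adjusted p = 0.0092) and Anxa1 by 0.44 ± 0.11 (adjusted p = 0.022). The Anxa1 call was lost without high salt and fat replicate 2 at 2 weeks or without replicate 1, 3 or 5 at 8 weeks (adjusted p = 0.058 to 0.074), with only the groups compared (0.095), and with the GAPDH ratio (0.058) or the fat index (0.065) as a covariate. The S100a11 call was lost with the spike-in level as a covariate, at a difference of 0.40 (adjusted p = 0.061). S100a6, which had risen strongly by 2 weeks, differed by 0.39 ± 0.20 between the times (adjusted p = 0.33).

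On the normal diet, 0 of 10 genes were called between 8 and 2 weeks, where 0.0392% of all probe sets tested were called by limma, and 0 of the 10 had an unadjusted p under 0.05, beside 869 of the 10208. The differences lay between -0.09 (S100a10) and 0.26 (S100a4). Ordered by mean signal, the 8-week high salt and fat group was highest in all 10 genes and the 2-week high salt and fat group came next in 9. In Anxa3 the lower 3 groups had nearly the same mean, with 112 ± 6.9 in the 2-week high salt and fat group, 110 ± 11 in the 2-week normal diet group and 112 ± 22 in the 8-week normal diet group (SD, n = 6 each). The 2-week high salt and fat group was not tested against the 8-week normal diet group.

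The genes also differed in how much the animals of a group varied. At 8 weeks, the SD of log2(signal + 7.21) between animals was larger on high salt and fat than on the normal diet in all 10 genes, with a median SD of 0.36 on high salt and fat and 0.18 on the normal diet. Over all probe sets tested, 48.6% had the larger SD on high salt and fat, with medians of 0.19 on either diet. S100a6 showed the widest gap, with an SD of 0.58 on high salt and fat and 0.12 on the normal diet. At 2 weeks the SD was larger on high salt and fat in 8 of 10 genes, where 58.1% of all probe sets tested had that order, and S100a6 had 0.20 on high salt and fat and 0.48 on the normal diet. These spreads are given without a test.

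At 8 weeks the high salt and fat animals kept nearly the same order across genes. Replicate 5 was highest in 7 genes and among the top 2 in all 10, replicate 1 was highest in the other 3 and among the top 2 in 9, and replicate 6 was lowest in 8. The same animals ranked alike for Havcr1, which is a membrane protein of injured proximal tubule and no member of the families. Its signal was 879 in replicate 5, 677 in replicate 1 and 488 in replicate 3, beside 303, 275 and 177 in replicates 4, 6 and 2. Within these 6 animals, Pearson's r between a gene and Havcr1, on the log2 scale, was between 0.68 and 0.96 over the 10 genes, between 0.64 and 0.97 for Col1a1, the main chain of fibrillar collagen, and between 0.16 and 0.81 for the macrophage gene Cd68. The other groups held genes with r below 0 for each of these markers. On high salt and fat at 2 weeks r was between -0.70 and 0.74 with Havcr1, between -0.59 and 0.09 with Col1a1 and between -0.87 and 0.07 with Cd68, the last 2 being above 0 in 2 of 10 genes each. On the normal diet at 8 weeks r was between -0.48 and 0.66 with Havcr1, between -0.94 and 0.77 with Col1a1 and between -0.79 and 0.32 with Cd68. On the normal diet at 2 weeks these ranges were -0.12 to 0.84, -0.33 to 0.84 and -0.92 to 0.38 in that order of markers. At 8 weeks no normal diet animal was highest in more than 4 genes. In the 2-week high salt and fat group replicate 5 was highest in 7 genes as well, yet its Havcr1 signal of 70.1 was below the 96.0 and 84.1 of replicates 6 and 2.

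**Figure D3:**
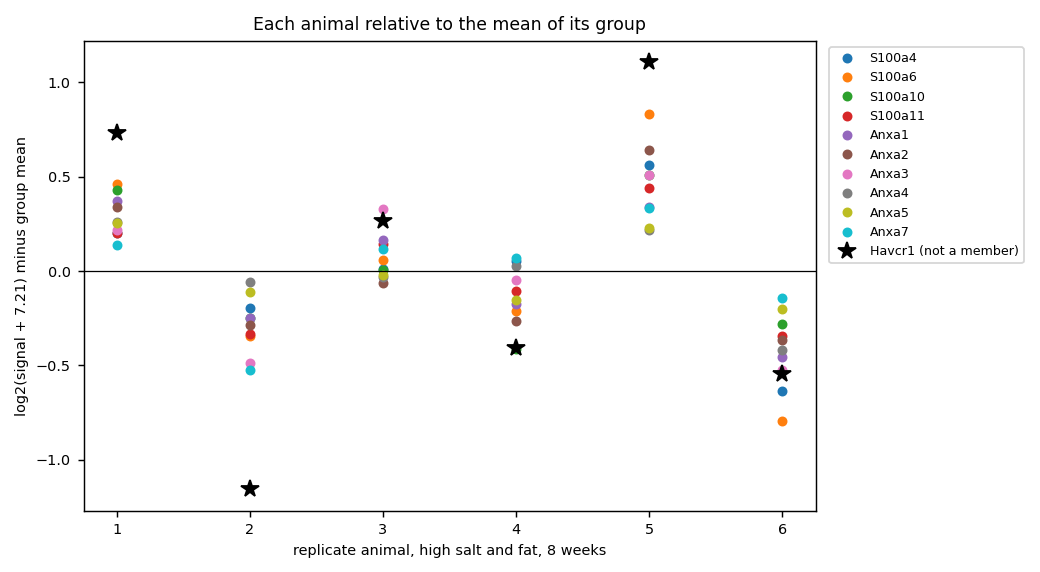
Level of each gene in the 6 animals on high salt and fat for 8 weeks, as log2(signal + 7.21) minus the mean of the group; circles are the 10 genes and stars are Havcr1. All circles lie above 0 in replicates 1 and 5 and below 0 in replicates 2 and 6, as do the stars.

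Relations between each gene and Havcr1, Col1a1 and Cd68 were tested over all 24 kidneys after each group mean was removed, so that the diet and time differences themselves did not enter. Of these 30 relations, 4 passed a permutation test within groups, adjusted over the 30. S100a10 with Havcr1 had r = 0.77 and Spearman's rho = 0.75 (permutation p = 0.00011 and 0.00028, adjusted 0.0017 and 0.0084). Its r within the groups was 0.68 and 0.90 on high salt and fat at 2 and 8 weeks, and 0.84 and 0.66 on the normal diet at 2 and 8 weeks. Without the 2 kidneys farthest from the median, both from the 8-week high salt and fat group, r was 0.70 (permutation adjusted p = 0.014). The r of S100a10 with Havcr1 was thus above 0 in all 4 groups. Outside the 8-week high salt and fat group, however, Havcr1 was dim, at 19.7 to 96.0, where the filter level was 44.5 to 54.5. In the 2-week normal diet group, replicate 4 was highest in both genes, with Havcr1 at 94.7 beside 19.7 to 35.8 in the others. How far the r of that group rests on this single kidney was not tested.

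Anxa3 with Col1a1 had r = 0.80 and rho = 0.70 (permutation p = 8.0e-05 and 0.0017, adjusted 0.0017 and 0.026), and r = 0.73 without the 2 farthest kidneys (permutation adjusted p = 0.014). Within groups r was -0.18 on high salt and fat and 0.73 on the normal diet at 2 weeks, and 0.96 on high salt and fat and 0.77 on the normal diet at 8 weeks, so the relation did not hold in the 2-week high salt and fat group. S100a11 and Anxa2 with Havcr1 each had r = 0.66 (permutation adjusted p = 0.016 each), with rho = 0.55 and 0.61 (adjusted p = 0.073 and 0.048). Without the 2 farthest kidneys these were 0.58 and 0.59 (permutation adjusted p = 0.063 and 0.054), so neither passed without those kidneys. For Anxa7 with Havcr1, r was 0.60 (permutation adjusted p = 0.059), and without its 2 farthest kidneys it was 0.68 (0.011). None of the 10 relations with Cd68 passed, and the strongest, Anxa7, had r = 0.38 (permutation adjusted p = 0.31).

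**Figure D4:**
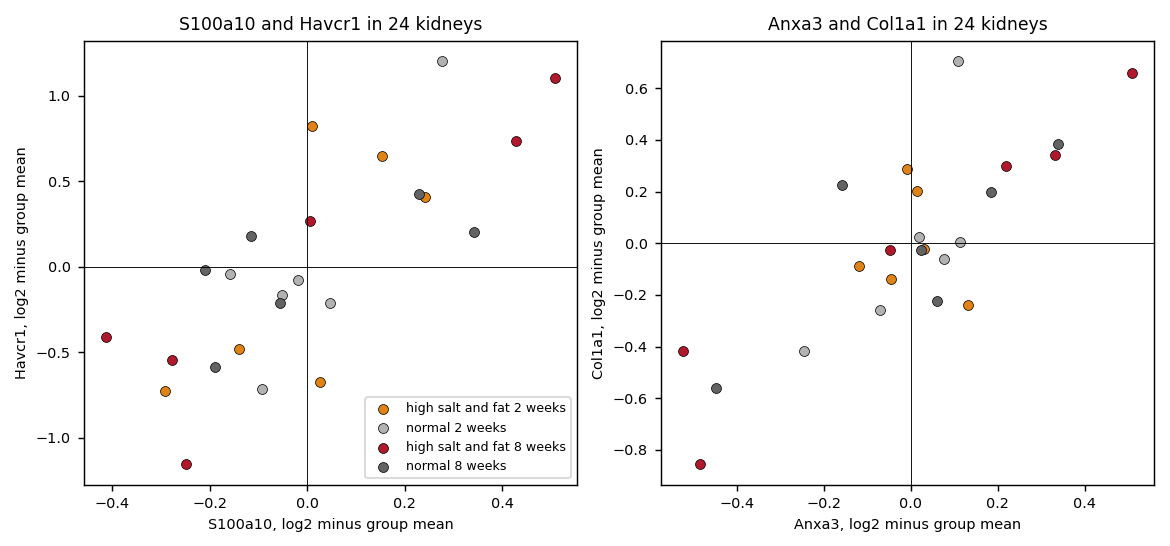
Deviations from the group means, in log2(signal + 7.21), of S100a10 against Havcr1 (left, r = 0.77) and of Anxa3 against Col1a1 (right, r = 0.80) in 24 kidneys; each point is an animal, coloured by group. In the left panel r is above 0 in each group, and in the right panel it is below 0 for the 2-week high salt and fat points.

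The same was done for 5 pairs of genes whose proteins are known to bind each other. Pearson's r of the deviations over 24 kidneys was 0.74 for S100a11 with Anxa2 (permutation adjusted p = 0.0065), 0.60 for S100a10 with Anxa2 (0.031), 0.61 for S100a11 with Anxa1 (0.045), 0.57 for S100a6 with Anxa2 (0.027) and 0.42 for S100a4 with Anxa2 (0.045). All 5 passed, but none did without the 2 kidneys farthest from the median of the first gene (permutation adjusted p = 0.080 to 0.24). For the 4 pairs other than S100a4 with Anxa2 these kidneys were high salt and fat replicates 1, 5 or 6 at 8 weeks, and r was 0.58 for S100a11 with Anxa2, 0.38 for S100a10 with Anxa2, 0.37 for S100a11 with Anxa1 and 0.32 for S100a6 with Anxa2 without them. For S100a4 with Anxa2 they were high salt and fat replicates 2 and 5 at 2 weeks, and r hardly moved, at 0.41 without them. By Spearman's rho, 2 passed: S100a11 with Anxa2 at 0.64 (adjusted p = 0.036) and S100a6 with Anxa2 at 0.51 (0.047). Within the 8-week high salt and fat group r was 0.87 to 0.96 for the 5 pairs, and for S100a10 with Anxa2 on the normal diet it was -0.18 at 2 weeks and -0.0027 at 8 weeks. Pairs of members not known to bind each other were not tested. In the same 8-week high salt and fat animals, r with Havcr1, no member of the families, was 0.68 to 0.96 over the 10 genes.

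The rest of the S100 and annexin families moved less. Of 16 further family genes looked for, 11 were on the array and 8 passed the filter. S100a1, an S100 protein of muscle and of kidney epithelium, rose at both times. It averaged 361 ± 28 on high salt and fat and 225 ± 28 on the normal diet at 2 weeks (difference 0.67 ± 0.07, adjusted p = 2.1e-06), and 308 ± 21 on high salt and fat and 225 ± 12 on the normal diet at 8 weeks (0.44 ± 0.07, adjusted p = 0.00027; SD, n = 6 each). S100b, known from glia and also made by adipocytes, was lower at 2 weeks by 0.99 ± 0.30 (adjusted p = 0.037). It averaged 32.3 ± 14 on high salt and fat, below the filter level of 44.5 to 54.5, and 71.8 ± 30 on the normal diet (SD, n = 6 each). The adipocyte genes were lower at that time too, and their part in the S100b difference was not tested. The median difference of the 8 genes was 0.13 at 2 weeks and 0.04 at 8 weeks. Anxa6 differed by 0.15 at 2 weeks and 0.04 at 8 weeks, Anxa11 by 0.17 and 0.04, and Anxa8 by -0.07 and 0.01. S100a13 differed by 0.11 at 2 weeks and 0.50 at 8 weeks, S100a16 by 0.18 and 0.37, and S100a3 by -0.32 and -0.24. None of these passed the test, and S100a16 at 8 weeks came nearest among the S100 genes (adjusted p = 0.079).

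Known partners and effectors of the proteins were also examined. Of 21 such genes, 12 passed the filter. By the brightest probe set of each gene, 2 were called higher at 2 weeks, 1 higher at 8 weeks and 0 lower at either. Of all probe sets tested, 4.55% were called higher at 2 weeks and 5.63% at 8 weeks. A dimmer probe set of Tgm2 was lower at 2 weeks, with a difference of -0.50 ± 0.13 (adjusted p = 0.014). The brighter one of Tgm2 differed by -0.22 ± 0.10 (adjusted p = 0.20). Myh9, the heavy chain of non-muscle myosin that S100a4 binds, was higher by 0.29 ± 0.08 at 2 weeks (adjusted p = 0.023) and by 0.27 ± 0.08 at 8 weeks (adjusted p = 0.027). Pla2g4a, the cytosolic phospholipase that Anxa1 inhibits, was higher by 0.63 ± 0.12 at 2 weeks (adjusted p = 0.0014) and differed by 0.31 ± 0.12 at 8 weeks (adjusted p = 0.12). The tissue plasminogen activator gene Plat, whose product binds the S100a10 and Anxa2 complex, differed by 0.06 at 2 weeks and 0.20 at 8 weeks (adjusted p = 0.70 and 0.091). Ager, the receptor through which several extracellular S100 proteins act, had mean signals between 3.65 and 4.97 in the 4 groups and did not pass the filter.

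For each gene, the others whose profile over the 24 kidneys lay nearest were found by the root mean square difference of log2(signal + 7.21) after each gene was centred, among 7492 genes. S100a11 lay nearest to Cd24, a surface protein of regenerating tubules, at 0.13, followed by the tetraspanin gene Tspan8 and by Anxa5 at 0.18 each. S100a4 lay nearest to Spp1 (osteopontin) at 0.42 and to the smooth muscle gene Tagln at 0.43. S100a6 lay nearest to S100a11 at 0.44, and Anxa2 lay nearest to S100a11 at 0.21. Thus members were among the 3 nearest genes of S100a4, S100a6, S100a10, S100a11, Anxa2 and Anxa5, and of none of the others.

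S100a10 lay nearest to the chemokine gene Rarres2 at 0.18 and then to Anxa1 at 0.19. Anxa1 lay nearest to the tropomyosin gene Tpm1 at 0.12 and the collagen gene Col5a2 at 0.16. Anxa5 lay nearest to Col18a1 and the actin-capping gene Capg, at 0.16 and 0.18. Anxa3 lay nearest to the integrin gene Itgb4 at 0.18, Anxa4 to Tmem123 at 0.10 and Anxa7 to the transgelin gene Tagln2 at 0.13. A small distance in Anxa4 and Anxa7 goes with the small range of these genes over the kidneys.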

How the data were processed

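The deposited table holds linear intensities of 15923 probe sets on each array, which the authors made with MAS5, per the submitters' processing notes; its version, scaling target and detection calls are not given in the sources used here. The 2% trimmed mean of the deposited intensities lay between 150.034 and 150.042 on every array. Arrays within a group correlated at 0.958 to 0.981, and no pair shared over 0.70% identical values, so each counted once. Depth has no counterpart on arrays, and 6 animals a group limit the precision.

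Symbols came from GEO's platform annotation, updated to RefSeq (GRCr8), which changed 0 symbols: 12783 probe sets had 1 symbol, 312 several and 2771 none, and 57 controls were left out. Signals were used as log2(signal + 7.21), the pseudocount being 0.1 times the median of the array medians. In R 4.3.3, limma 3.58.1 (lmFit, contrasts.fit, eBayes with trend) was fitted to all 24 arrays without a block, two-sided, with p adjusted over 10208 probe sets. It was tested on simulated data. Relations were computed on deviations from group means in Python 3.11.15 with 100000 permutations within groups, and array measures with exact tests (scipy 1.17.1).

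All members were named. Other named genes were taken from up to 4 called genes of smallest p each way per list and diet comparison. Further ones came from the 3 nearest genes of each member. Not every gene that met these rules is named. Named after their values were seen were Plat, Ager, Tgm2, Canx, Hpcal1, Anxa6, Anxa8, Anxa11, S100a3, S100a8, S100a9, S100a13 and S100a16. The members and lists were chosen with earlier results of these data known. The alternatives were other pseudocounts, normalizations, filters, moderation, array weights, a replicate block, the groups compared alone, arrays left out, 3 covariates and the mean of a gene's probe sets.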

Additional observations from a re-analysis of the deposited data

Results flagged for a closer look

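In each of 56 groups of 6 signals (14 probe sets by 4 groups), the highest and lowest signals were set against Dixon's criterion, which chance passes in about 1 of 20 groups. The criterion was passed in 3, and the gaps below are on that log2 scale. The Anxa5 signal of normal diet replicate 1 at 2 weeks was 543 and lay above its group, with a gap of 0.767 of the range. The second probe set of Anxa4 had a signal of 198 in the same animal, below its group, with a gap of 0.694 of the range. An untested, dim probe set of Anxa3 had a signal of 10.8 in high salt and fat replicate 1 at 8 weeks, below its group, with a gap of 0.757 of the range. The Anxa5 call at 2 weeks stood whichever array was left out, with an adjusted p of 5.2e-05 to 0.00029 (limma).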

How the results depend on the processing

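The 5 calls at 2 weeks kept their direction and call in every leave-one-out fit and in all other settings, except that Anxa2 lost its call once the fat index entered the model. The 8-week calls of S100a4, S100a6, S100a10, S100a11, Anxa1, Anxa2 and Anxa5 stood in every setting, and those of Anxa3, Anxa4 and Anxa7 did not, which gave 7 to 10 genes called with an array left out. The interaction was called in 1 gene with array weights and in 1 without both normal diet arrays 1 and 2 at 8 weeks (leave-one-out 0 to 1), and time on high salt and fat was called in 8 genes with array weights and in 4 with only the groups compared or with any of the 3 covariates, beside 5. Partner relations passed in 2 of 5 pairs by Spearman's rho and in 0 without the 2 farthest kidneys. The cause of these shifts was not tested.

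Over all probe sets, the counts called at 2 weeks were 328 with the GAPDH ratio, 482 with the spike-in level and 232 with the fat index as covariates, beside 892. At 8 weeks they were 541 without both normal diet arrays 1 and 2 and 497 with the spike-in level, beside 933 (leave-one-out 543 to 1120; 543 without high salt and fat replicate 1 and 579 without replicate 5). For the interaction they were 80 with array weights, 4 with the GAPDH ratio, 0 with the spike-in level and 13 with the fat index, beside 39 (leave-one-out 22 to 50). For time on high salt and fat they were 632 with array weights and 223 with only the groups compared, beside 360 (leave-one-out 220 to 507). For time on the normal diet they were 2 with centring on the array median, 9 without both normal diet arrays 1 and 2, and 0 without an eBayes trend, with only the groups compared or with any of the 3 covariates, beside 4 (leave-one-out 0 to 10).

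Small uncalled differences changed sign 24 times. At 2 weeks Anxa3 was -0.0093 with quantile normalization, -0.029 with the spike-in level and -0.024 to 0.049 with a replicate left out, and the second probe set of Anxa4 was -0.17 to 0.012 with a replicate left out. For time on the normal diet, S100a6 was 0.075 with the spike-in level and -0.15 to 0.10 with a replicate left out, and S100a11 was -0.0048 with centring and -0.029 to 0.056 with a replicate left out. Anxa3 was -0.015 with quantile normalization, -0.024 with centring, -0.019 with array weights, -0.12 without both normal diet arrays 1 and 2, -0.045 with the spike-in level and -0.059 to 0.099 with a replicate left out. Anxa4 was -0.043 both with the fat index and with the mean of its probe sets and -0.023 to 0.073 with a replicate left out, and Anxa5 was -0.0047 to 0.088 with a replicate left out.

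Groups share replicate numbers. Within a time, animals of the same number on the 2 diets had correlations of deviations of -0.07 to 0.10. No pairing by number was seen in this check, but it had no reference from unlike numbers and cannot exclude a shared litter, day or batch. With a replicate block, 892 probe sets were called at 2 weeks and 922 at 8 weeks, 5 and 9 of the genes. Anxa4 was lost at 8 weeks (limma adjusted p = 0.060), whereas its second probe set passed (0.037). The block called 41 probe sets for the interaction, 354 for time on high salt and fat and 5 for time on the normal diet. The dim probe sets of Anxa3 and Anxa7 lay below the filter and limit what can be said of their isoforms.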

Other observations

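Calcium-binding proteins outside the S100 and annexin families moved in both directions. Of 21 such genes, 17 passed the filter. By the brightest probe set of each gene, 3 were called higher at 2 weeks, and 3 higher and 1 lower at 8 weeks. The share of all probe sets tested that was called higher was 4.55% at 2 weeks and 5.63% at 8 weeks. Dimmer probe sets of Canx and Hpcal1 were lower at 2 weeks, with differences of -0.56 ± 0.14 and -0.42 ± 0.11 (limma adjusted p = 0.011 and 0.012). The other probe sets of Canx differed by -0.15 and 0.09 (adjusted p = 0.22 and 0.43), and the brighter one of Hpcal1 by -0.26 (adjusted p = 0.058). Tesc, the tescalcin gene whose product regulates a sodium-proton exchanger, averaged 80.5 ± 30 on high salt and fat and 26.3 ± 8.9 on the normal diet at 2 weeks (SD, n = 6 each), a log2 difference of 1.37 ± 0.26 (limma adjusted p = 0.0013). At 8 weeks Tesc averaged 48.4 ± 6.9 on high salt and fat and 31.7 ± 16 on the normal diet (SD, n = 6 each). That was a difference of 0.63 ± 0.26 (adjusted p = 0.13). Only its 2-week high salt and fat mean lay above the range of the filter level, 44.5 to 54.5. The calpain genes Capn1 and Capn2, which encode calcium-activated proteases, were each higher by 0.35 ± 0.08 at 2 weeks (adjusted p = 0.0041 and 0.0066), and Capn2 was higher by 0.38 ± 0.08 at 8 weeks (adjusted p = 0.0029). Calb1, the calbindin of the distal tubule that carries calcium across the cell, was lower at 8 weeks, with 831 ± 184 on high salt and fat and 1220 ± 89 on the normal diet, a difference of -0.58 ± 0.10 (adjusted p = 0.00049). At 2 weeks Calb1 differed by -0.04 ± 0.10 (adjusted p = 0.87). The calmodulin gene Calm2 was higher by 0.27 ± 0.06 (adjusted p = 0.0047) and the endoplasmic reticulum gene Rcn1 by 0.47 ± 0.12 (adjusted p = 0.015) at 8 weeks. The interaction of diet and time was called in 0 of the 17 genes by limma, where 0.382% of all probe sets tested were called. Between 8 and 2 weeks on high salt and fat, 1 of the 17 was called higher and 1 lower, where 3.53% of all probe sets tested were called. The lowest of these differences was -0.82. On that diet Calb1 had averaged 1447 ± 107 at 2 weeks.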
